A study of Mus musculus with 24 samples.

Results

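The 10 genes described here encode the core of activin signaling: the ligand subunits Inhba and Inhbb, the secreted antagonist Fst, the type II receptors Acvr2a and Acvr2b, the type I receptors Acvr1b (ALK4) and Acvr1c (ALK7), the receptor-regulated SMADs Smad2 and Smad3, and the inhibitory SMAD Smad7. They were chosen by name, with earlier results of these data known, and all 10 were listed among the 17696 genes of the deposited count table. Gene positions are those given in the deposited count table, on GRCm38. Activins are dimers of inhibin β subunits. They bind a type II receptor, which phosphorylates a type I receptor, and the latter phosphorylates SMAD2 and SMAD3, which join SMAD4 and act on transcription. Follistatin binds activins outside the cell, SMAD7 blocks the type I receptor, and in pancreatic islets the pathway is known for its part in endocrine development and insulin secretion.

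MIN6 cells, a mouse insulinoma β cell line, carried a lentiviral vector with a scrambled sequence (Scr), one inhibiting miR-146a-5p (ZIP) or one overexpressing it (OE). Each line was sequenced untreated and after 24 h in a cytokine mix (Scr+Cy, ZIP+Cy and OE+Cy) that held IFNγ at 100 ng/ml, TNFα at 10 ng/ml and IL-1β at 5 ng/ml, with 4 libraries in each of the 6 groups. All lines had been selected with puromycin and expanded from picked clones, which were screened for miR-146a-5p. The vector and the clone therefore cannot be told apart, and OE was made with another vector backbone than ZIP and Scr. The labels do not say that the 4 replicates were separate cultures, so p values measure the spread between these libraries. The level of the microRNA itself was not analysed here. By qRT-PCR, the study reported it as higher in untreated OE than in Scr and unchanged in untreated ZIP. Cytokines raised it in each line there, most in Scr. In bulk RNA, fewer cells expressing a gene and less RNA per cell cannot be told apart.

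Assigned reads ranged from 26657792 to 37168232 per library. All 10 β cell markers checked, among them Ins1, Ins2, Pdx1 and Mafa, were at 1 CPM or more in every library, with a summed level of 18760 to 25060 CPM in Scr, 28400 to 30930 CPM in ZIP and 40110 to 43790 CPM in OE. Of 6 fibroblast markers, 5 reached 1 CPM in at least 1 library, none in all of them. Their sum was 17.5 CPM in Scr replicate 1, 45.2 CPM in ZIP replicate 1 and 54.8 CPM in Scr+Cy replicate 1, and between 0.568 and 7.88 CPM in the other 21 libraries. Of the remaining lists, 3 of 4 listed genes of other islet cells, 3 of 4 of leukocytes, 1 of 2 of endothelium and 1 of 2 of exocrine cells reached 1 CPM in any library. Among the genes of other islet cells, Gcg was at 1 CPM or more in every library. Its level was 288 ± 55.5 CPM in Scr, 185 ± 87.9 in ZIP and 41.4 ± 2.51 in OE (SD, n = 4). Ppy went the other way, with 0 reads in Scr and ZIP and 8.89 ± 2.15 CPM in OE. The exocrine and duct list had only Krt19 and Cela1 in the count table. Its sum was 12.4 to 24.2 CPM in OE and OE+Cy, all of it Krt19, and at most 0.21 CPM elsewhere, all of it Cela1. Krt19 was at 0 reads in all Scr, ZIP, Scr+Cy and ZIP+Cy libraries and at 15.9 ± 2.35 CPM (SD, n = 4) in OE. Cela1, an exocrine enzyme gene, had 0 reads in all OE and OE+Cy libraries and at most 6 in any other.

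To set the members beside the microRNA that the lines were built to change, the sequence of mmu-miR-146a-5p (RefSeq, GRCm38.p6, chr11:43374435-43374456, minus strand) is given with its seed, bases 2 to 8, in capitals. The 3′ UTR sites that pair with the whole seed follow, with the paired 7 bases in capitals, since they lie in 3 members whose levels differed between lines.
mmu-miR-146a-5p: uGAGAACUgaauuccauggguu
Acvr2b site: aaactcaatgctgcAGTTCTCt
Smad3 site: tgccctcccaaatcAGTTCTCc
Inhba site: taactactaattatAGTTCTCa
These sites are at chr9:119433852-119433873 (plus strand), chr9:63648309-63648330 (minus strand) and chr13:16030023-16030044 (plus strand) of GRCm38, in the longest 3′ UTR of each gene in GENCODE release M21. The other 7 members had no match to the 7 bases AGTTCTC. Acvr1c had 3 and Smad2 and Inhbb 1 match each to the 6 bases GTTCTC, and Acvr2a, Acvr1b, Smad7 and Fst had none. Among 15453 genes of the count table with a 3′ UTR, 12.1% held the 7 bases and 32.5% the 6 bases, and the median UTR was 1126 bases against 1514 to 7465 bases for the members. In the untreated cells the 3 members with a 7-base match differed from Scr in different ways, as the values below show: Acvr2b was higher in ZIP, Inhba was higher in OE and Smad3 was lower in OE. A match is a feature of the letters and does not show that the site is used.

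Per kilobase of exons, 2 receptors and Smad2 had the highest levels of the 10 genes in control cells. In Scr the highest levels were those of Acvr1c (8.57 ± 0.727 CPM per kb, SD, n = 4), Smad2 (8.29 ± 0.543) and Acvr2a (7.35 ± 0.422). The ranges of Acvr1c and Smad2 overlapped, whereas Acvr2a, with 6.72 to 7.60 CPM per kb, was below every Smad2 library (7.68 to 8.99). Smad7 followed at 5.14 ± 0.728, and Acvr1b at 3.76 ± 0.242 and Acvr2b at 3.57 ± 0.447 were alike within their spread. Smad3 (0.747 ± 0.0826) and Inhba (0.72 ± 0.0975) were much lower, Inhbb was at 0.0479 ± 0.00947, and Fst had 1 read in 1 of the 4 libraries. In OE the order began with Inhba at 11.3 ± 2.08 CPM per kb, whose range of 9.65 to 14.3 overlapped that of Acvr1c.

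**Figure D1:**
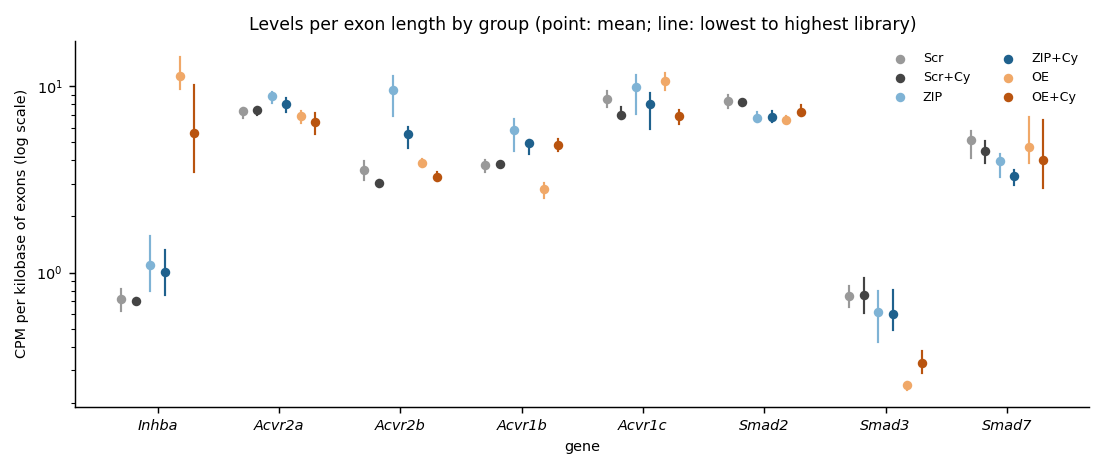
Level of 8 members per kilobase of exons (CPM per kb, log scale) in the 6 groups, with the mean of 4 libraries as a point and the lowest to highest library as a line. Inhba moves from the lower band near 0.72 in Scr to 11.3 in OE, while Smad3 moves from 0.747 to 0.25; Inhbb and Fst, with libraries at or near 0, are not drawn.

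The largest differences lay in the ligand subunit Inhba and the antagonist Fst, both in OE. Inhba (chr13:16011851-16031609, plus strand), which encodes the inhibin βA subunit of activin A, was at 3.97, 4.17, 5.19 and 5.08 CPM in Scr replicates 1 to 4 and at 91.3, 65.5, 61.6 and 70.1 CPM in OE. No OE library was near a Scr library, and OE replicate 1 stood above the other 3. The rise was 15.7-fold (log2 fold change 3.97 ± 0.28, SE, adjusted p = 2.01e-11). In ZIP the gene was at 7.10, 6.05, 5.11 and 9.98 CPM, which overlapped Scr. The 1.54-fold difference passed the thresholds used for calling (fold change of at least 1.5 and unadjusted p under 0.05), but not adjustment over all genes (adjusted p = 0.122). It was called in 15 of the 24 fits that left out 1 library, and its log2 fold change was 0.40 without ZIP replicate 4. Wnt5a and Btg3 had the most similar patterns to Inhba over the 24 libraries among 10889 genes with a mean of at least 5 CPM (Pearson r = 0.981 and 0.988). These correlations describe libraries that share line and treatment.

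Fst (chr13:114452262-114458951, minus strand), which encodes follistatin, was read 0, 1, 0 and 0 times in Scr and 454, 674, 388 and 373 times in OE. Its level in OE was 13.7 ± 3.30 CPM (SD, n = 4). Against a limit of 3 reads per Scr library, it was at least 155-fold higher in OE (adjusted p = 3.28e-08). In ZIP, 15 reads in replicate 1 were the only ones, and in Scr+Cy 5 reads in replicate 1 were the only ones. Both libraries were those with the highest fibroblast marker sums (45.2 and 54.8 CPM), and the part of such cells in these Fst reads was not tested. In OE, with fibroblast marker sums of 0.773 to 4.11 CPM, all 4 libraries held Fst. The genes most like Fst were Lgi1 and Rhobtb1 (r = 0.97 and 0.968, n = 24 libraries).

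The second β subunit, Inhbb (chr1:119415463-119422248, minus strand), was close to the limit of detection. It had 9, 8, 6 and 5 reads in Scr, 9, 3, 3 and 6 in ZIP and 1, 4, 4 and 2 in OE. The OE libraries were all below those of Scr, and the difference was called (log2 fold change -1.32 ± 0.60, adjusted p = 0.0703). The call was lost without replicate 1, 2 or 3 of Scr or without replicate 1 or 4 of OE.

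**Figure D2:**
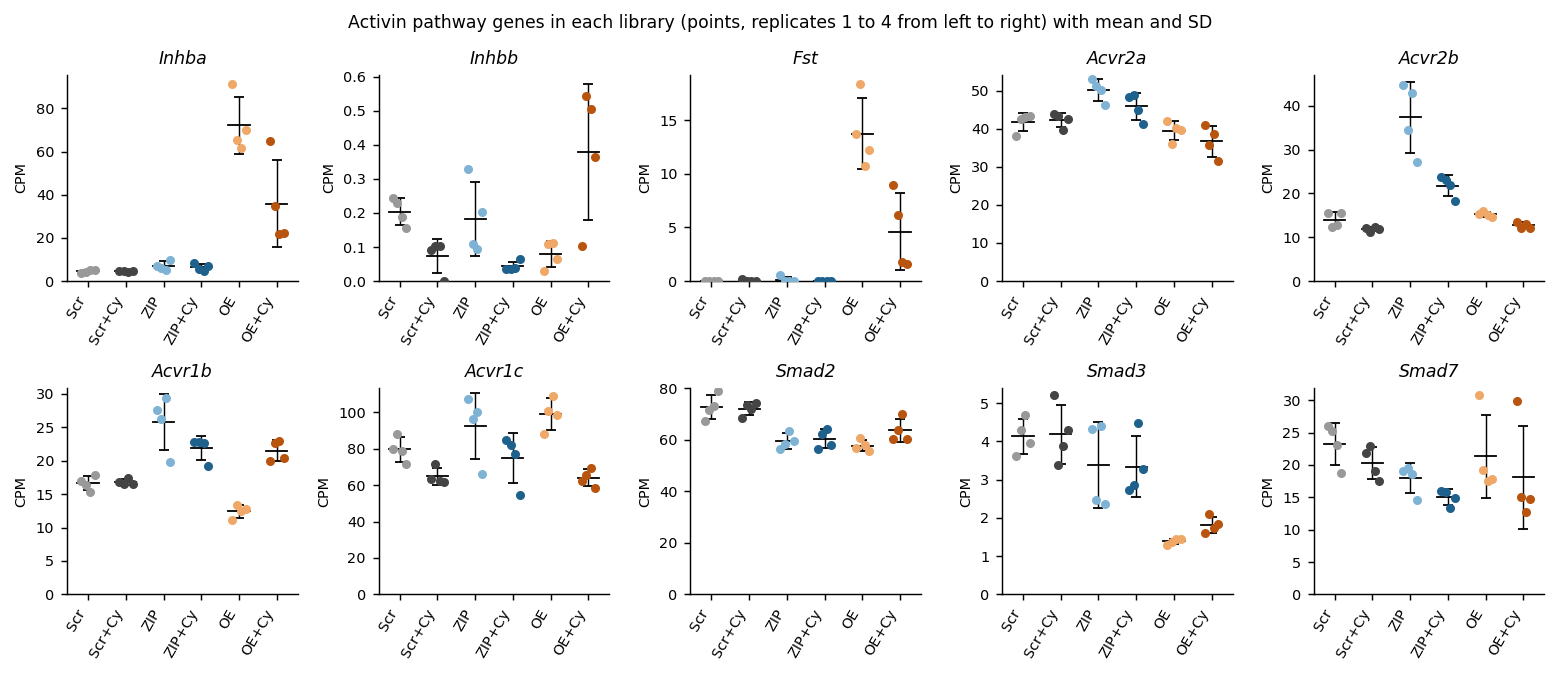
CPM after TMM scaling (linear axes from 0) of the 10 members in every library, with points for replicates 1 to 4 from left to right and the mean and SD of each group. Inhba and Fst are high in OE and OE+Cy, Acvr2b in ZIP and ZIP+Cy, and Smad3 is low in OE and OE+Cy.

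Among the receptors, Acvr2b differed most, and it did so in ZIP. Acvr2b (chr9:119402178-119442148, plus strand), one of the type II receptors that capture the ligand, was at 15.6, 12.3, 12.7 and 15.5 CPM in Scr and at 44.7, 34.5, 42.9 and 27.2 CPM in ZIP. Every ZIP library lay above every Scr library, replicate 4 being the lowest. The rise was 2.66-fold (log2 fold change 1.41 ± 0.12, adjusted p = 1.02e-09). In OE the level was 15.2 ± 0.605 CPM against 14.03 ± 1.76 in Scr, with overlapping libraries (adjusted p = 0.433). The other type II receptor, Acvr2a (chr2:48814109-48903264, plus strand), was at 46.1 to 53.1 CPM in ZIP and 38.2 to 43.2 CPM in Scr, a difference without overlap that was under the fold limit (log2 fold change 0.26 ± 0.07, adjusted p = 0.00753). The ratio of Acvr2b to Acvr2a per kilobase was accordingly 1.07 ± 0.188 in ZIP and 0.489 ± 0.0818 in Scr (SD, n = 4), without overlap, and 0.56 ± 0.0563 in OE.

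Of the type I receptors, Acvr1b (chr15:101174072-101213684, plus strand), through which activin A and activin B signal, was at 17.0, 16.4, 15.3 and 17.8 CPM in Scr and 27.5, 26.3, 29.4 and 19.8 CPM in ZIP. The ZIP libraries were all higher, and the rise of 1.55-fold (log2 fold change 0.63 ± 0.09, adjusted p = 9.63e-06) was only just past the fold limit. Without ZIP replicate 3, or with scaling to total counts, the log2 fold change was 0.56 and under that limit. In OE the gene was at 11.1, 13.4, 12.4 and 12.8 CPM, below every Scr library, by 1.34-fold (log2 fold change -0.42 ± 0.10, adjusted p = 0.000686). Acvr1c (chr2:58267453-58357758, minus strand), a receptor for activin B, Nodal and several GDFs, did not pass the call in either line, with 65.9 to 107 CPM in ZIP, 88.2 to 109 CPM in OE and 71.5 to 88.0 CPM in Scr. ZIP overlapped Scr (adjusted p = 0.214). The OE libraries all lay above Scr, by 1.25-fold (log2 fold change 0.32 ± 0.12, adjusted p = 0.0362). In fits that left out 1 library, this adjusted p reached 0.108. The ratio of Acvr1c to Acvr1b per kilobase was 2.29 ± 0.287 in Scr, 1.70 ± 0.121 in ZIP and 3.80 ± 0.264 in OE, and neither line overlapped Scr.

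Among the SMADs, Smad3 was called in OE, and Smad2 and Smad7 were called in neither line. Smad3 (chr9:63646767-63757994, minus strand), which binds DNA directly, was at 3.62, 4.28, 4.69 and 3.96 CPM in Scr and 1.30, 1.36, 1.44 and 1.44 CPM in OE. The OE libraries lay close together and below all of Scr, and the fall was 2.98-fold (log2 fold change -1.58 ± 0.20, adjusted p = 5.24e-07). In ZIP the values 4.32, 2.48, 4.40 and 2.35 CPM spread over the Scr range and below it (adjusted p = 0.289). Smad2, the more abundant of the pair, was at 67.4 to 79.0 CPM in Scr, 56.5 to 63.5 CPM in ZIP and 55.6 to 60.6 CPM in OE. Both lines lay below all Scr libraries, by 1.22-fold in ZIP (adjusted p = 0.000389) and 1.26-fold in OE (adjusted p = 3.21e-05), which was under the fold limit. Per kilobase, Smad2 exceeded Smad3 by 11.2 ± 1.23 times in Scr, 12.1 ± 3.93 times in ZIP and 26.4 ± 1.79 times in OE. Smad7, which is itself a target of the pathway, was at 18.7 to 26.1 CPM in Scr, 14.7 to 19.6 CPM in ZIP and 17.6 to 30.9 CPM in OE, with overlap in both comparisons (adjusted p = 0.189 and 0.64). Its highest OE value was that of replicate 1, the library that was also highest for Inhba.

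In all, 3 of 10 members were called in ZIP (Acvr2b, Acvr1b and Inhba, all higher), where 14.9% of all genes were called. In OE, 4 were called (Inhba and Fst higher, Smad3 and Inhbb lower), against 25.7% of all genes. The median log2 fold change of the 10 members was 0.24 in ZIP and -0.10 in OE, beside 0 over all genes in both. Both comparisons used the same Scr libraries.

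**Figure D3:**
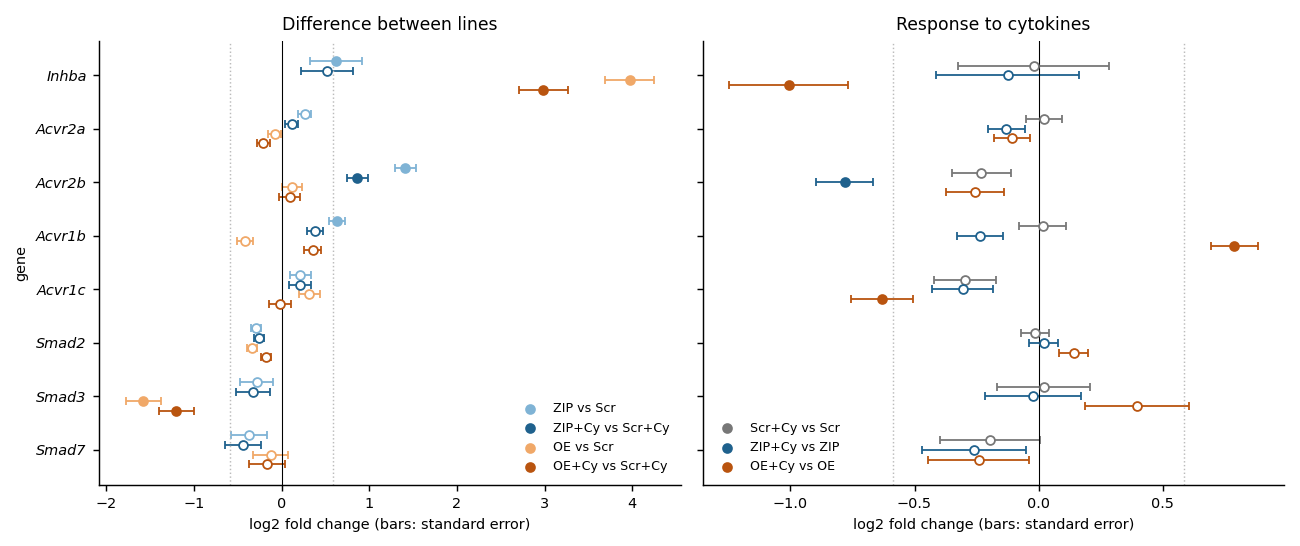
Log2 fold changes with standard errors for 8 members, between lines on the left and in response to cytokines on the right. Filled points were called, dotted lines mark a 1.5-fold change, and Inhbb and Fst are left out because of groups at or near 0 reads. Inhba and Smad3 stand out in OE, Acvr2b in ZIP, and on the right OE+Cy has called points for Inhba, Acvr1b and Acvr1c.

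In control cells only Inhbb was called among the 10 members in Scr+Cy vs Scr, where 10.6% of all genes were called. It had 3, 3, 3 and 0 reads after treatment, at least 2.10-fold lower (adjusted p = 0.117), and the call was lost without Scr replicate 1 or 2 or Scr+Cy replicate 4. Inhba was at 4.39 to 4.66 CPM. Of the members other than Inhbb and Fst, Acvr1c differed most, at 62.0 to 71.9 CPM against 71.5 to 88.0 CPM in Scr, a 1.23-fold difference that was not called (adjusted p = 0.109).

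In ZIP cells 2 members fell with cytokines, where 12.5% of all genes were called. Acvr2b was at 23.7, 23.1, 21.9 and 18.3 CPM in ZIP+Cy, below all untreated ZIP libraries, a fall of 1.72-fold (log2 fold change -0.78 ± 0.11, adjusted p = 1.05e-05). Inhbb, with 1, 1, 1 and 2 reads, was at least 1.75-fold lower (adjusted p = 0.0341). Fst had no read in any ZIP+Cy library. With the replicate numbers as a block, which paired the libraries of this comparison, Fst was called as lower as well (adjusted p = 0.109), although its reads in ZIP were those of 1 library.

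In OE cells 5 members were called and 21% of all genes. Inhba fell to 64.8, 34.6, 22.0 and 22.4 CPM, with replicate 1 again highest and inside the range of the untreated OE libraries. The fall was 2.01-fold (log2 fold change -1.01 ± 0.24, adjusted p = 0.00125) and had a log2 value of -1.46 without OE+Cy replicate 1. Fst fell in the same 4 libraries to 259, 181, 56 and 51 reads, all below untreated OE at 8.999, 6.13, 1.77 and 1.55 CPM, by 2.996-fold (log2 fold change -1.58 ± 0.49, adjusted p = 0.0124). Without OE+Cy replicate 1 its log2 fold change was -2.13, and by DESeq2 the difference was not called (adjusted p = 0.478). Per kilobase, Inhba exceeded Fst by 2.57 to 4.78 times in the OE libraries and by 4.05 to 10.4 times in those of OE+Cy.

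The type I receptors moved in opposite directions in OE cells under cytokines. Acvr1b rose from 12.4 ± 0.987 to 21.5 ± 1.55 CPM (19.9, 22.6, 23.0 and 20.4 CPM), 1.73-fold and without overlap (adjusted p = 2.68e-07). Acvr1c fell from 99.2 ± 8.63 to 64.1 ± 4.74 CPM, 1.55-fold (adjusted p = 0.000193), with the highest treated library at 69.6 CPM and the lowest untreated one at 88.2 CPM. Without OE replicate 3, or with scaling to total counts, the log2 fold change of Acvr1c was -0.58, under the fold limit. The ratio of Acvr1c to Acvr1b was 1.42 ± 0.0557 in OE+Cy, below all OE libraries. Inhbb rose from 1, 4, 4 and 2 reads to 3, 16, 16 and 12 (adjusted p = 0.00322), replicate 1 being the lowest in both groups and its treated library overlapping untreated OE. Smad7 was at 29.9, 15.0, 12.8 and 14.7 CPM and was not called with all libraries, whereas without OE+Cy replicate 1 it was called as lower (log2 fold change -0.59, adjusted p = 0.0044).

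Differences between the cytokine responses of the lines were tested directly. The response of OE differed from that of Scr for 2 members, Acvr1b (log2 difference 0.77 ± 0.13, adjusted p = 0.000244) and Inhbb (3.63 ± 0.84, adjusted p = 0.00345), where 20% of all genes differed at an adjusted p under 0.05. Acvr1b also differed by DESeq2 and with filterByExpr, edgeR's filter on low counts, whereas Inhbb did not pass that filter and DESeq2 gave it no adjusted p. For Inhba the difference was -0.99 ± 0.39 (adjusted p = 0.0758). With the replicate numbers as a block, which paired the libraries within both lines, it was -1.03 (adjusted p = 0.0242). Without OE+Cy replicate 1 it also passed (adjusted p = 0.000615). The response of ZIP differed from that of Scr for 0 of 10 members by edgeR and by DESeq2, and for 0.0565% of all genes. The nearest was Acvr2b, with a log2 difference of -0.55 ± 0.17 (adjusted p = 0.43), the only 1 of the 10 with an unadjusted p under 0.05 by edgeR.

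With both lines under cytokines, Acvr2b was the 1 member called in ZIP+Cy against Scr+Cy (15.8% of all genes). Scr+Cy was at 12.2, 11.3, 12.4 and 11.95 CPM, below all ZIP+Cy libraries, and the rise was 1.82-fold (log2 fold change 0.86 ± 0.12, adjusted p = 3.72e-06). In OE+Cy against Scr+Cy, 4 members were called beside 28.5% of all genes. Inhba rose 7.93-fold (log2 fold change 2.99 ± 0.28, adjusted p = 2.86e-09), and Fst rose with 4.61 ± 3.61 CPM against 5 reads in 1 Scr+Cy library (adjusted p = 2.53e-06). Inhbb was at least 3.90-fold higher (adjusted p = 0.00219). Smad3 fell 2.30-fold to 1.82 ± 0.212 CPM (adjusted p = 1.88e-05).

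Against untreated Scr, the treated lines gave 3 members called in ZIP+Cy (21.7% of all genes) and 3 in OE+Cy (34.2%). In ZIP+Cy these were Acvr2b (1.55-fold higher, adjusted p = 0.000101), Smad7 (15.0 ± 1.22 CPM against 23.3 ± 3.29 in Scr, 1.55-fold lower, adjusted p = 0.016) and Inhbb (at least 1.94-fold lower, adjusted p = 0.0123). The call of Acvr2b was lost without Scr replicate 2 (log2 fold change 0.57) or ZIP+Cy replicate 1 (0.58), and that of Smad7 without Scr replicate 1 (-0.57) or ZIP+Cy replicate 3 (-0.58). In OE+Cy they were Inhba (7.82-fold higher), Fst (at least 52.1-fold higher) and Smad3 (2.27-fold lower). Without OE+Cy replicate 1, Smad7 and Inhbb were called too.

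The genes near Acvr2b were also high in ZIP. The place of Acvr2b in a stretch of distal chromosome 9 that is raised in ZIP was known beforehand. Of 23 tested genes whose start lay within 1 Mb, 12 were called higher and 0 lower in ZIP, 20 had a log2 fold change above 0, and the median was 0.82. Acvr2b itself was at 1.41. The called genes nearest to it were Xylb and Acaa1a on one side (log2 fold change 0.62 and 0.85, at -44.8 and -60.9 kb) and Exog on the other (0.65, at 42.8 kb). In ZIP+Cy against Scr+Cy, 11 of the 23 were called higher and 2 lower, with a median of 0.71. In OE against Scr, 1 was called higher and 3 lower, with a median of -0.05. The part of the neighborhood in the Acvr2b difference was not tested. Smad3, on the same chromosome, had 22 neighbors, of which 3 were called lower and 0 higher in ZIP (median -0.01), and 1 higher and 2 lower in OE (median 0.10). The 44 genes near Acvr1b had medians of 0.06 in ZIP and 0.23 in OE. Near Inhba only 3 genes were tested, all with log2 fold changes under 0 in both lines, and near Fst 8, of which 1 was called higher and 2 lower in OE. The 11 genes near Smad2 had a median of -0.65 in OE, 3 of them called lower and 0 higher.

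**Figure D4:**
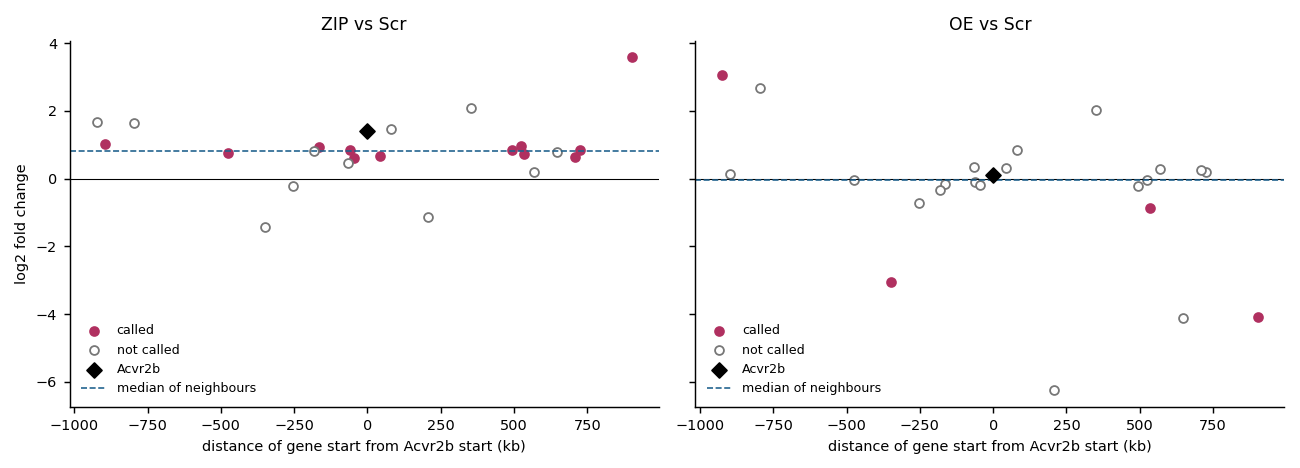
Log2 fold change of the 23 tested genes within 1 Mb of Acvr2b against the distance of their start from that of Acvr2b (kb), in ZIP and in OE against Scr, with Acvr2b as a diamond. In ZIP 20 of the 23 lie above 0 around a median of 0.82, whereas in OE the median is -0.05.

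The promoters of Inhba, Smad3 and Acvr2b are shown because Inhba and Smad3 moved in opposite directions in OE and Acvr2b moved in ZIP. RefSeq (GRCm38.p6) gave entries for 7 members, with none for Fst. The 250 bases before the start were searched on both strands for a SMAD box (CAGAC), an AP-1 site (TGANTCA), a CRE (TGACGTCA), a TATA box (TATAAA) and an SP1 box (GGGCGG), and matches are in capitals.
Inhba promoter: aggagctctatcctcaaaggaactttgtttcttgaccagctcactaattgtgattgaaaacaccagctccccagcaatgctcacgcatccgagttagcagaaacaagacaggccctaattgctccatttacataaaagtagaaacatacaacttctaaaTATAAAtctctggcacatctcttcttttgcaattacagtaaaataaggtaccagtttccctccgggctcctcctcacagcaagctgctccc
Smad3 promoter: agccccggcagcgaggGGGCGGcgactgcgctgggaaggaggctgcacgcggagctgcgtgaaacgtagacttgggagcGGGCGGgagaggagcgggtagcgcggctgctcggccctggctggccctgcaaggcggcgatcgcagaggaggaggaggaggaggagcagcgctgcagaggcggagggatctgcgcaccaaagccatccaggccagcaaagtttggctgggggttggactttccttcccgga
Acvr2b promoter: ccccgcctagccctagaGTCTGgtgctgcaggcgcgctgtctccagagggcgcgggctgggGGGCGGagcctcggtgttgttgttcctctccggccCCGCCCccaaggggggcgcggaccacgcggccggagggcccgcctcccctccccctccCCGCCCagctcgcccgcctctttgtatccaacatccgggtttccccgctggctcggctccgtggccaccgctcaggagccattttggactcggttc
They lie at chr13:16011601-16011850 (plus strand), chr9:63757995-63758244 (minus strand) and chr9:119401928-119402177 (plus strand). Inhba held 1 match to the TATA box letters, at position -91 from the start, and no other match. Smad3 held 2 SP1 boxes, and Acvr2b held 3 SP1 boxes and 1 SMAD box. Of 27025 promoters of the same length, 42.1% held a SMAD box, 6.87% an AP-1 site, 1.62% a CRE, 13% a TATA box and 32.9% an SP1 box. These letters are a description and show no binding.

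The wider pathway was followed through 56 other listed genes. In ZIP 5 were called higher and 7 lower (median log2 fold change -0.04), where 14.9% of all genes were called. Of the 5, Bmp6 and Bmpr1b had at most 6 reads in any ZIP or Scr library and did not pass adjustment (adjusted p = 0.0516 and 0.101). Inha, the α subunit that turns activins into inhibins, fell from 6.72, 5.23, 4.41 and 4.58 CPM in Scr to 0.293, 0.182, 0.217 and 0.437 CPM, 18.3-fold (adjusted p = 3.14e-13). Of 7 target genes, 5 were called lower and 1 higher. Id4 fell 2.88-fold and Id3 2.28-fold, both inhibitors of bHLH factors that respond chiefly to BMP signals, and Id1, Id2 and Junb fell as well. The inhibitory Smad6 fell 2.31-fold. The ligand Tgfb2 rose from 0.491 to 3.31 CPM (6.69-fold), and Grem1, a secreted BMP antagonist, 2.46-fold to 1.61 CPM.

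In OE 15 of the 56 were called higher and 8 lower (median 0.00), where 25.7% of all 17696 genes were called, 1991 higher and 2549 lower. Of the 15, Inhbe, Bmp6, Ltbp1 and the inhibitor Lefty1 had at most 9 reads in any OE or Scr library. Ltbp1 did not pass adjustment (adjusted p = 0.0625). Secreted and membrane inhibitors moved both ways, with 5 of 9 higher and 2 lower. Grem1 rose from 0.649 ± 0.11 to 24.2 ± 2.74 CPM (36.9-fold, adjusted p = 6e-14), whereas Chrd, which binds BMPs, fell 4.90-fold and Fstl3, a relative of follistatin, 1.72-fold (adjusted p = 0.00142). Among ligands, Tgfb1 rose from 10.99 ± 2.64 to 37.4 ± 3.82 CPM (3.40-fold), Tgfb2 3.78-fold with overlapping libraries, and Gdf1 fell 7.55-fold. The co-receptor Tgfbr3 (betaglycan) fell from 19.6 ± 2.58 to 0.531 ± 0.293 CPM (36.8-fold, adjusted p = 7.14e-13). The BMP-regulated SMADs Smad1, Smad5 and Smad9 fell 2.10-, 1.66- and 2.22-fold, and Pmepa1, a feedback inhibitor, fell 3.32-fold. Inha, at 7.22 ± 0.483 CPM against 5.24 ± 1.05 in Scr, was under the fold limit. Of the 7 target genes, 3 were called higher and 0 lower. They included Id2 (2.34-fold, adjusted p = 3.65e-09) and Ltbp1, whose 7 reads in OE were all in replicate 1.

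**Figure D5:**
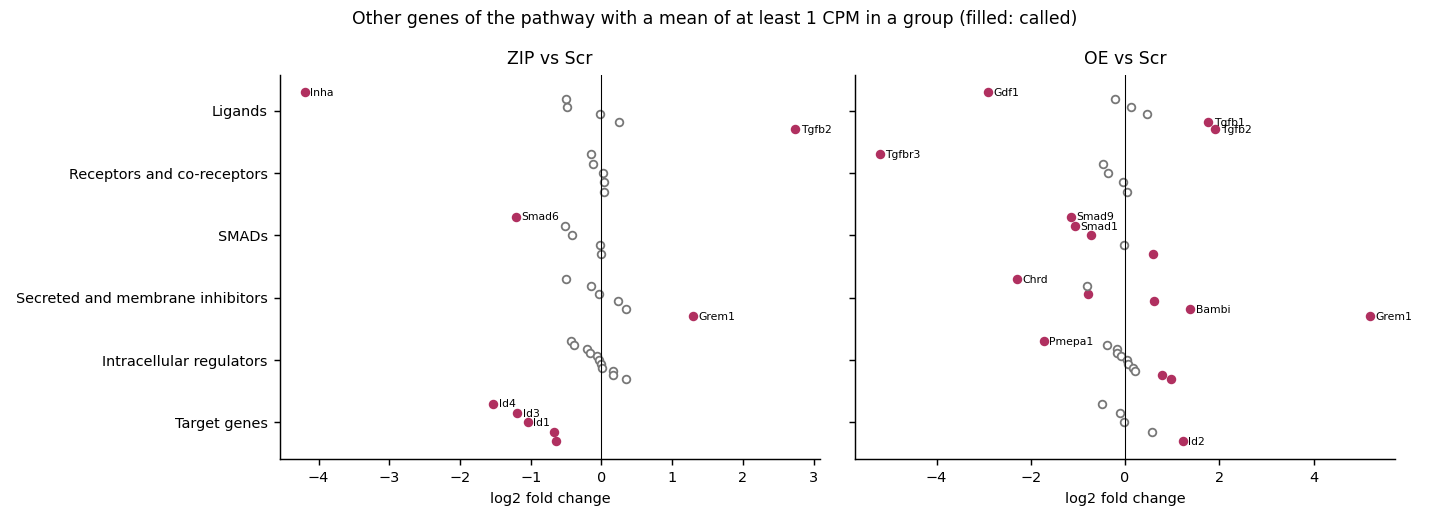
Log2 fold change in ZIP and OE against Scr of 38 other pathway genes with a mean of at least 1 CPM in a group, by role, with called genes filled. Id genes lie to the left in ZIP, Inha is the lowest point there at -4.2, and in OE Grem1 at 5.21 and Tgfbr3 at -5.2 are the extremes.

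Smad4, the shared partner of the receptor-regulated SMADs, was at 114 to 120 CPM on average in the 6 groups and was called in no comparison. The log2 fold change was -0.01 ± 0.05 in ZIP and -0.02 ± 0.05 in OE. Acvr1, a type I receptor that activin binds without activating SMAD2, was at 34.8 ± 1.32 CPM in Scr, 32.0 ± 1.48 in ZIP and 27.1 ± 1.51 in OE, lower in OE by 1.29-fold (adjusted p = 4.03e-05) and under the fold limit. Tgfbr1 was at 94.5 ± 4.34, 96.4 ± 14.2 and 68.2 ± 3.51 CPM, respectively. Tgfbr2, which TGF-β needs, had a mean of at most 0.43 CPM in any group, and its highest value in 5 of the 6 groups was that of replicate 1, among them the 3 libraries with the highest fibroblast marker sums. The part of such cells was not tested.

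Cytokines raised the same 3 pathway genes in all lines. These were Junb (4.21-fold in Scr, 4.78-fold in ZIP and 4.53-fold in OE), the corepressor Tgif1 (1.93-, 2.11- and 2.996-fold) and Tgfb1 (1.53-, 1.79- and 1.56-fold), and in Scr no other of the 56 was called (5 with the replicate block), beside 10.6% of all genes. In ZIP 6 rose and 5 fell (12.5% of all genes were called). The former included Tgfb2 (2.37-fold), and the falls included Chrd (1.98-fold), Fstl3 (1.95-fold), the ligand Gdf11 (1.67-fold) and Tgfbr3 (1.55-fold). Of the 6 that rose, Inhbe and Bmp2 had at most 13 reads in any ZIP or ZIP+Cy library. They did not pass adjustment (adjusted p = 0.134 and 0.0816), nor did Gdf1 among the falls (adjusted p = 0.069). In OE 7 rose and 4 fell (21% of all genes were called), with Chrd, Grem1, Smad6 and the decoy receptor Bambi down 2.64-, 1.95-, 1.72- and 1.70-fold. Of the 7, Bmpr1b, Amhr2 and Foxh1 had at most 12 reads in any OE or OE+Cy library. Foxh1 did not pass adjustment (adjusted p = 0.0977). The response of OE differed from that of Scr for 5 of the 56 genes (Chrd, Twsg1, Ski, Tgif1 and Hgs) by edgeR, where 20% of all genes differed. Under cytokines, 16 of the 56 were called in ZIP+Cy against Scr+Cy, beside 15.8% of all genes (5 higher and 11 lower, with Inha 22.9-fold lower, Id4 2.52-fold lower, Smad6 2.10-fold lower, Tgfb2 10.1-fold higher and Grem1 1.87-fold higher). In OE+Cy against Scr+Cy there were 24, beside 28.5% of all genes (13 higher and 11 lower, with Grem1 18.8-fold, Tgfb2 3.49-fold and Tgfb1 3.46-fold higher and Tgfbr3 37.7-fold, Chrd 9.32-fold and Pmepa1 3.02-fold lower). Fstl1 was called lower in both, but it had 6.34 CPM in Scr+Cy replicate 1, the library with the highest fibroblast marker sum, and at most 0.413 CPM in the other 3. Against untreated Scr, 20 of the 56 were called in ZIP+Cy (21.7% of all genes) and 27 in OE+Cy (34.2%).

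The genes whose pattern over the 24 libraries was most like that of the other members were Galc and Susd4 for Acvr2b (r = 0.942 and 0.925), Dynlt3 and Mtmr7 for Acvr2a (0.923 and 0.9), Calcoco1 for Acvr1b (0.894), Glp1r and Prkca for Acvr1c (0.892 and 0.889), Slk and Atad1 for Smad2 (0.916 and 0.915), Eml2 and Dip2c for Smad3 (0.944 and 0.942) and Furin and Meg3 for Smad7 (0.844 and 0.797). As for Inhba, these values carry no test.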

How the data were processed

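Per the study's methods, read quality was assessed in FastQC and alignment to mm10 used STAR (2.7.8a in the submitters' processing notes, which also give Partek 11.0.24.0204) with RefSeq transcripts. The deposited table holds estimated counts from the authors, not normalized, for genes with at least 10 reads in total. Of these values 30.13% were not whole, and all were rounded. The use of strand in counting is not given in the sources used here, so overlapping antisense genes cannot be told apart. Deposited normalized values were not used. Groups and replicate numbers came from the labels.

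One edgeR 4.0.16 model (R 4.3.3) of 6 group means was fitted to 24 libraries and 17696 genes, with TMM scaling and quasi-likelihood tests, tested on simulated data. The Benjamini-Hochberg adjustment took in every gene of a comparison. Calls needed a fold change of 1.5 and an unadjusted p under 0.05, and differences between responses an adjusted p under 0.05. The standard error is the log2 fold change divided by the square root of F. A group with at most 3 reads in every library was set to 3 reads, and floors cover counting error only. Exon lengths and 3′ UTRs came from GENCODE M21 (GRCm38, the build of the files). Named genes of the pathway are the 4 largest rises and falls per comparison at an adjusted p under 0.05 and a mean of at least 1 CPM, plus Smad4, Tgfbr1, Tgfbr2, Acvr1, Inha and Fstl3. Others were chosen after their values were seen, and a few genes that the rules name are not reported here. Members and lists were chosen with earlier results of these data known. Replicate numbers, which the labels share across groups under a prefix they do not explain, paired the libraries (r over 0.1 for every number, 14553 genes) in Scr+Cy vs Scr, ZIP+Cy vs ZIP, OE+Cy vs OE and ZIP+Cy vs Scr+Cy. Alternatives were DESeq2 1.42.0, its size factors, total counts, filterByExpr, fits of the compared groups, the block, adjusted p values, leaving out each library and a window of 2 Mb.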

Additional observations from a re-analysis of the deposited data

Results flagged for a closer look

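Of 56 combinations of a member and a group above 3 reads, 7 had 1 library apart from the other 3 by Dixon's test at the 95% level, where chance gives about 1 in 20. Smad7 stood high in replicate 1 of OE (30.9 CPM) and of OE+Cy (29.9 CPM). Fst stood high in replicate 1 of ZIP (0.549 CPM) and of Scr+Cy (0.154 CPM), the other libraries being at 0. With the others at 0, any value above 0 is flagged, so the rate of 1 in 20 does not apply to the Fst flags. Acvr2a was low in Scr replicate 1 (38.2 CPM), Acvr1b was low in ZIP+Cy replicate 4 (19.2 CPM), and Acvr1c was high in Scr+Cy replicate 2 (71.9 CPM).

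The cytokine response of OE differed from that of Scr by the test of the difference for Acvr1b (log2 difference 0.77) and Inhbb (3.63, on at most 16 reads per library).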

How the results depend on the processing

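Of 3398 values of a member's log2 fold change under an alternative, 3345 were counted as unchanged. These kept their side of the thresholds. They also kept their direction, apart from uncalled values that shifted by no more than the standard error of the main value. Of the others, 31 lost the call, 18 gained one, 4 uncalled Fst values moved, and 0 called values turned sign. Counts of members called changed as follows. Scaling to total counts left 1 in ZIP vs Scr (main 3), and filterByExpr left 0 in Scr+Cy vs Scr, 1 in ZIP+Cy vs ZIP and 1 (Acvr1b) for the OE response difference, as did DESeq2, which gave Inhbb no adjusted p. Fitting the compared groups alone, or an adjusted p under 0.05 with or without the fold limit, left 0 in Scr+Cy vs Scr. An adjusted p under 0.05 with no fold limit gave 3 in ZIP+Cy vs Scr+Cy, 7 in OE+Cy vs Scr+Cy, 5 in ZIP+Cy vs Scr and 7 in OE+Cy vs Scr, and for the pathway list 19 in ZIP vs Scr, 7 in Scr+Cy vs Scr, 19 in OE+Cy vs OE and 32 in ZIP+Cy vs Scr. The replicate block gave 5 pathway genes in Scr+Cy vs Scr and, beside the calls given above, changed no other call of a paired comparison. Leaving out 1 library at a time gave 0 to 1 members and 3 to 8 pathway genes in Scr+Cy vs Scr, and 3 to 5 members in OE+Cy vs Scr. Leaving out replicate 1 of OE and OE+Cy together, chosen after seeing the data, gave 5 members in OE+Cy vs Scr and 5 pathway genes in Scr+Cy vs Scr; Inhba then had a response difference of -1.30 (adjusted p = 0.00129). With a window of 2 Mb, 21 of 36 genes near Acvr2b were called higher in ZIP, with a median of 0.82, while in OE the medians near Inhba and Smad2 became 0.08 and -0.23. The causes were not tested. Inhbb and, outside OE, Fst are limited by depth, at 16 reads or fewer per library.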
